A study of Drosophila melanogaster with 6 samples.

Results

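The genes described here are 9 heat shock genes of Drosophila melanogaster: 6 small heat shock genes that lie together on chromosome arm 3L at cytological region 67B (Hsp22, Hsp23, Hsp26, Hsp27, Hsp67Ba and Hsp67Bc), the small heat shock gene l(2)efl, the Hsp70 family gene Hsp68, and the Hsp90 gene Hsp83. They were listed by name. A value of their own was found for 5 of the 9, among 10862 genes with a probe set of 1 gene in all. The platform's gene symbols gave 1 probe set each to Hsp26, Hsp27, l(2)efl and Hsp68. Hsp83 has none under its platform symbol, and its probe set was named through RefSeq, which lists the probe set's ID among the synonyms of Hsp83. For 113 other probe sets named in both sources, the RefSeq synonym and the platform annotation gave the same gene in every case. Hsp22 is annotated only on 3 probe sets that also carry CG4456, a 67B gene also called Hsp67Bb, so their values belong to both genes together. Hsp23, Hsp67Ba and Hsp67Bc were not analysed here.

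The RNA came from larvae of the third instar, on 6 Affymetrix arrays with 1 colour, 3 of each genotype. The wild type larvae are of the strain written as cancon S. The others carried a mutant maleless gene on both homologues (mle/mle). Its product is an RNA helicase of the complex that raises transcription of the male X chromosome. These mutants were males, separated by the Tb phenotype from siblings heterozygous over T(2-3)Tb. The sex of the wild type larvae, the mle allele, the strain behind it and the number of larvae on an array are not given. Strain and sex therefore cannot be told apart from genotype. The arrays are called biological replicates, and p-values measure only the spread between these RNA samples.

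Small heat shock proteins are chaperones built on an alpha-crystallin domain that hold unfolding proteins so that they do not aggregate. Most heat shock genes are switched on by the heat shock factor Hsf under stress, but the 67B genes are also induced without stress by the moulting hormone ecdysone at the end of larval life. Hsp68 is a heat-inducible chaperone of the Hsp70 family, which refolds proteins using ATP. Hsp83 is the cytosolic Hsp90, abundant without stress, which keeps kinases and steroid receptors in an active shape. The alpha-crystallin-like protein of l(2)efl is best known from muscle.

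Values are log2 signals per probe set, made by the authors with RMA, so that a difference of 1 is a doubling of signal. Probe sets differ in how well they hybridise, so levels are compared between arrays and not between genes. All 5 genes and the 3 shared probe sets were above the level that leaves out the dimmest 40% of probe sets. The arrays correlated with each other at 0.987 to 0.997, and within groups the SD of the median probe set was 0.11. The deviations of same-numbered arrays of the 2 groups correlated at 0.17, 0.28 and 0.52 for replicates 1, 2 and 3, although no label states what a number stands for. Arrays of different numbers were not compared in this way. Replicate 2 stood apart from the others in both groups, and values without it stand beside those that it moves. The bulk RNA of larvae cannot tell fewer cells of a type from less RNA per cell.

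None of the 5 genes differed between mle/mle and wild type larvae past the test, which was limma with adjustment over all 13966 tested probe sets and a threshold of 0.05. Of all probe sets, 0.0573% were called. The estimates ran from -0.25 for l(2)efl to 0.18 for Hsp27 on the log2 scale. None was called with the replicate number as a block either, where 0.043% of all probe sets were called, nor without replicate 2 of both groups, where 3.24% were.

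Of the 67B genes, Hsp26 encodes a cytosolic small chaperone. Its log2 signal read 11.33, 10.26 and 11.36 in wild type replicates 1, 2 and 3, and 11.16, 10.97 and 11.10 in the same replicates of mle/mle. Wild type replicate 2 lay far below the other 5 arrays, which spanned less than 0.4, and the groups overlapped. The wild type mean was 10.98 ± 0.63 and the mle/mle mean 11.08 ± 0.10 (SD, n = 3 each). Their log2 difference of 0.10 did not pass (SE 0.27, 95% interval -0.52 to 0.71, adjusted p = 0.9997 by limma). The direction hung on 1 array: without wild type replicate 2 it was -0.27 (adjusted p = 0.64 by limma), and without replicate 2 of both groups -0.21 (SE 0.07, unadjusted p = 0.021, adjusted p = 0.24 by limma).

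Hsp27 encodes a small chaperone that can be found in the nucleus. It read 11.19, 10.63 and 11.49 in wild type, and in mle/mle 11.05, 11.48 and 11.31. Wild type replicate 2 was again the lowest array, but mle/mle replicate 2 was the highest of its group, unlike for Hsp26. The means were 11.10 ± 0.44 and 11.28 ± 0.22 (SD, n = 3 each), and the log2 difference of 0.18 did not pass (SE 0.21, 95% interval -0.30 to 0.66, adjusted p = 0.9997 by limma). Without wild type replicate 2 it was -0.06, and without replicate 2 of both groups -0.16 (adjusted p = 0.69 by limma).

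The same-numbered pairs show this for both genes. In Hsp26, mle/mle minus wild type was -0.17 in pair 1, 0.71 in pair 2 and -0.26 in pair 3 on the log2 scale. In Hsp27 the same differences were -0.14, 0.86 and -0.18. Both genes were thus lower in mle/mle in pairs 1 and 3 and higher in pair 2 by a larger step.

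The 3 probe sets shared by Hsp22, whose protein goes to mitochondria, and CG4456 did not move alike. The brightest read 8.76, 8.28 and 8.88 in wild type, and in mle/mle 8.63, 8.42 and 8.67. The dimmest read 7.35, 7.02 and 7.42 in wild type, and in mle/mle 7.40, 7.14 and 7.43. In both, replicate 2 was the lowest array of each group. The remaining one read 7.79, 7.83 and 7.60 in wild type, and in mle/mle 7.69, 7.82 and 7.66, and here replicate 2 was the highest array of each group. The log2 differences between groups were -0.07, 0.06 and -0.01 in this order, with SE of 0.15, 0.13 and 0.09 and overlapping groups, and none passed (adjusted p = 0.9997 for each by limma).

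In the RefSeq order of genes, the region runs from Hsp67Bc through CG4456, Hsp22, CG4461, Hsp26, Hsp67Ba and Hsp23 to Hsp27. CG4461, a further small heat shock gene that lies between Hsp22 and Hsp26, was measured on its own. It read 7.49, 7.54 and 7.36 in wild type, and in mle/mle 7.59, 7.63 and 7.50, so that replicate 2 was the highest array of each group. Its difference was 0.11 (SE 0.08, adjusted p = 0.9997 by limma). The nearest measured genes on either side, Fdx1 and CG4080, differed by 0.14 and 0.08, and neither passed.

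**Figure D1:**
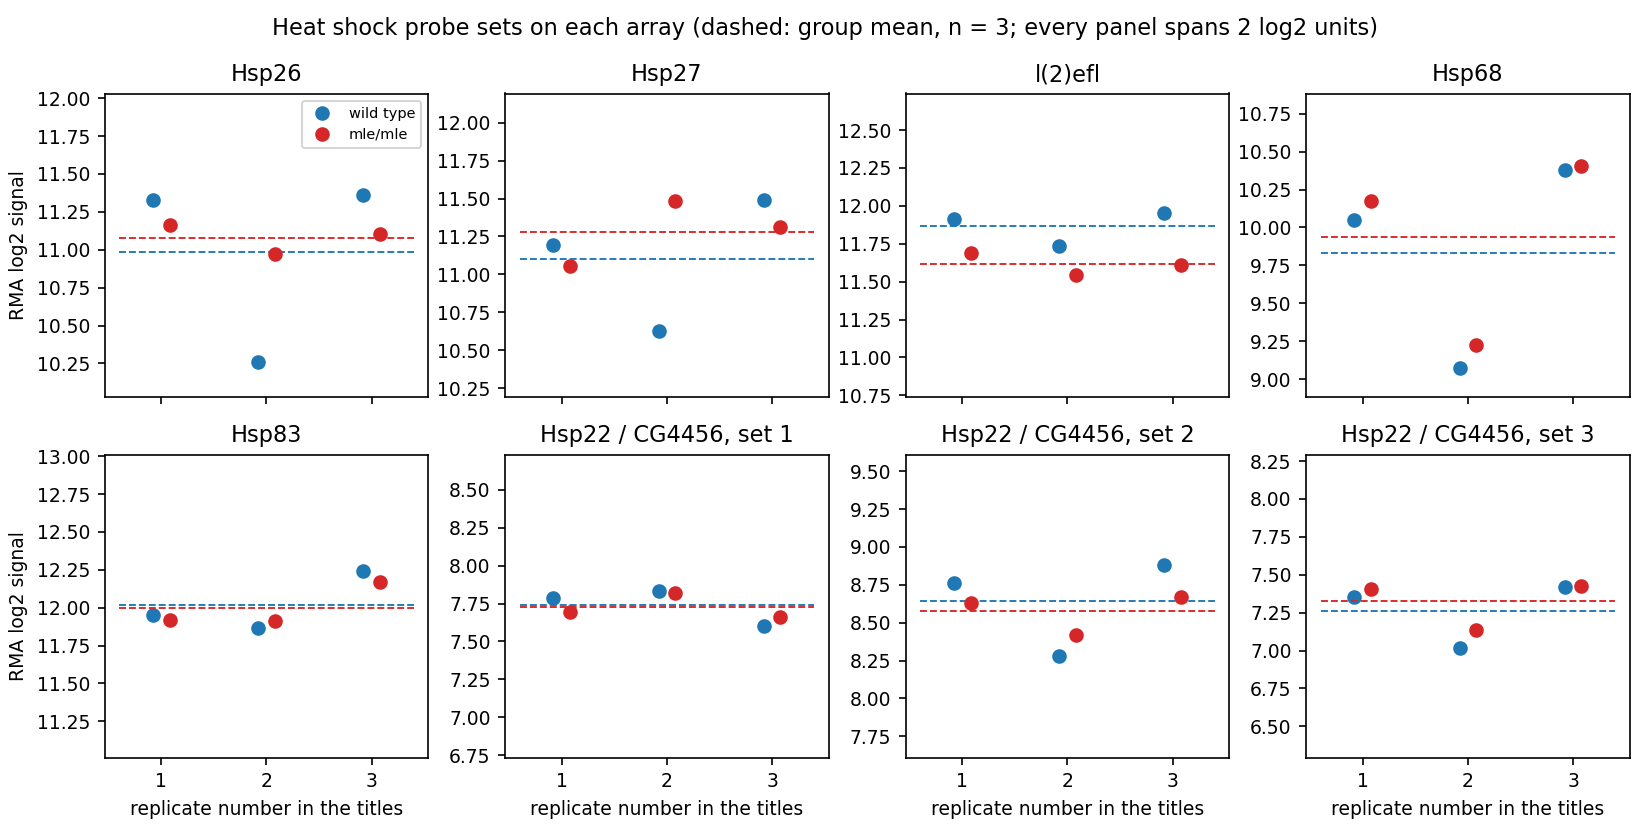
RMA log2 signal (vertical axis, each panel spanning 2 log2 units) of the 5 heat shock genes and the 3 probe sets shared by Hsp22 and CG4456, by the replicate number in the titles, with 1 point per array and a dashed line at each group mean (n = 3). In Hsp68 both replicate 2 arrays lie near 9.1 while the other 4 lie between 10.05 and 10.41; in Hsp26 and Hsp27 only the wild type replicate 2 array lies low; in l(2)efl every wild type point lies above every mle/mle point.

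Outside 67B, l(2)efl was the one gene of the 5 whose groups did not overlap. It read 11.91, 11.73 and 11.95 in wild type, and in mle/mle 11.69, 11.55 and 11.61. The lowest wild type array lay 0.04 above the highest mle/mle array. The means were 11.87 ± 0.12 and 11.62 ± 0.07 (SD, n = 3 each). The log2 difference was -0.25 (SE 0.09, 95% interval -0.45 to -0.06), or 0.84 times the wild type signal, with an unadjusted p = 0.018 and an adjusted p = 0.83 by limma. Each of the 3 pairs had the lower value in mle/mle, by -0.22, -0.19 and -0.34. Of all probe sets, 2.94% had groups that did not overlap with mle/mle lower, 4.32% had an unadjusted p under the same 0.05, and 1.35% had such a p with mle/mle lower. The difference stayed between -0.32 and -0.20 in all 15 alternatives, and its adjusted p was 0.10 or more in each of them by limma. Some alternatives cannot move the difference: the replicate block, the dim filter, another variance model and means over probe sets.

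Hsp68 read 10.05, 9.07 and 10.38 in wild type, and in mle/mle 10.17, 9.22 and 10.41. The 2 replicate 2 arrays lay below all others by more than 0.8, and the groups overlapped closely otherwise. The means were 9.83 ± 0.68 and 9.93 ± 0.63 (SD, n = 3 each), with a log2 difference of 0.10 (SE 0.38, 95% interval -0.78 to 0.98, adjusted p = 0.9997 by limma). The 6 arrays spanned a range of 2.51-fold. Within pairs the difference was small, 0.12, 0.15 and 0.03, and with the replicate number as a block its SE was 0.06 and its 95% interval -0.06 to 0.26 (adjusted p = 0.86 by limma). With 1 array left out, which breaks a pair, the direction turned in 3 of 6 cases: the difference was -0.28 when wild type replicate 2 was left out, -0.02 for mle/mle replicate 1 and -0.14 for mle/mle replicate 3, but 0.21 for wild type replicate 1, 0.37 for wild type replicate 3 and 0.46 for mle/mle replicate 2. Without replicate 2 of both groups it was 0.08 (95% interval -0.20 to 0.35, by limma).

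Hsp83 read 11.95, 11.86 and 12.24 in wild type, and in mle/mle 11.92, 11.91 and 12.17. Replicate 3 was the highest array of each group, and the groups overlapped. The wild type mean was 12.02 with an SD of 0.20, the SD in mle/mle was 0.15 (n = 3 each), and the log2 difference was -0.02 (SE 0.12, 95% interval -0.29 to 0.25, adjusted p = 0.9997 by limma). This interval reaches from 0.82 to 1.19 times the wild type signal. The direction of so small a difference turned in 6 of the 15 alternatives, among them the PLIER table at 0.02.

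**Figure D2:**
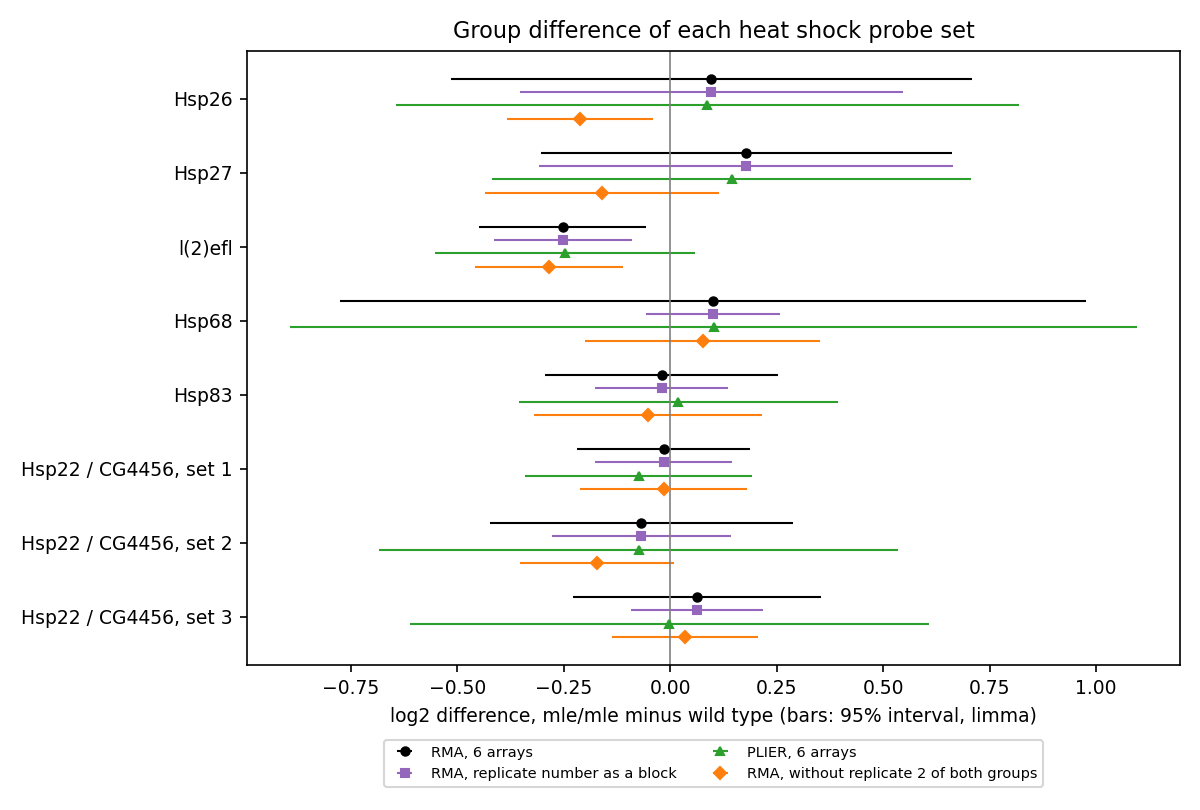
Log2 difference between mle/mle and wild type (horizontal axis) with its 95% interval by limma for each heat shock probe set, from RMA values of all 6 arrays, the same with the replicate number as a block, the PLIER values, and RMA values without replicate 2 of both groups. The l(2)efl estimates lie between -0.28 and -0.25 in the 4 fits, while those of Hsp26 and Hsp27 move from above to below 0 without replicate 2, and the Hsp68 interval is narrower with the block (-0.06 to 0.26) and without replicate 2 (-0.20 to 0.35) than in the other fits.

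Set against the other members, the 2 measured 67B genes had a median log2 difference of 0.14 and the 3 others of -0.02, so that the first lay 0.16 above the second. Only 2 genes stand for the 67B region in this value. Per array, the mean of the 67B genes minus that of the others, each gene centred on its own mean, was 0.05, -0.35 and 0.00 in wild type, and in mle/mle -0.05, 0.43 and -0.09. The arrays of replicates 1 and 3 all lay within 0.1 of 0, and the 2 groups parted at replicate 2 alone, in opposite directions. Without replicate 2 of both groups the 67B median lay -0.13 from that of the others. No test was made of a score over the members.

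The genes varied between replicates to different degrees. The SD within groups was 0.65 for Hsp68, 0.45 for Hsp26 and 0.35 for Hsp27, and 99.6%, 98.8% and 97.6% of all tested probe sets had a smaller one. It was 0.17 for Hsp83, above 80.8% of probe sets, and 0.10 for l(2)efl, under the median of 0.11. CG4461, also in 67B, had 0.08, above 27.9% of probe sets. The spread of Hsp26 rested on 1 array: without wild type replicate 2 its SD was 0.08, above 37.9% of probe sets, where the median was 0.09. Without that array the SD of Hsp27 was 0.21, above 92.1%, and that of Hsp68 0.53, above 99.3%. Without replicate 2 of both groups, Hsp68 was at 0.20, Hsp27 at 0.20 and Hsp83 at 0.19, each above more than 95% of probe sets, while Hsp26 at 0.03 and l(2)efl at 0.04 lay under the median of 0.07. The 95% interval of Hsp68 between groups reached from 0.58 to 1.97 times the wild type signal in the comparison of all arrays, and from 0.96 to 1.20 times with the replicate number as a block.

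**Figure D3:**
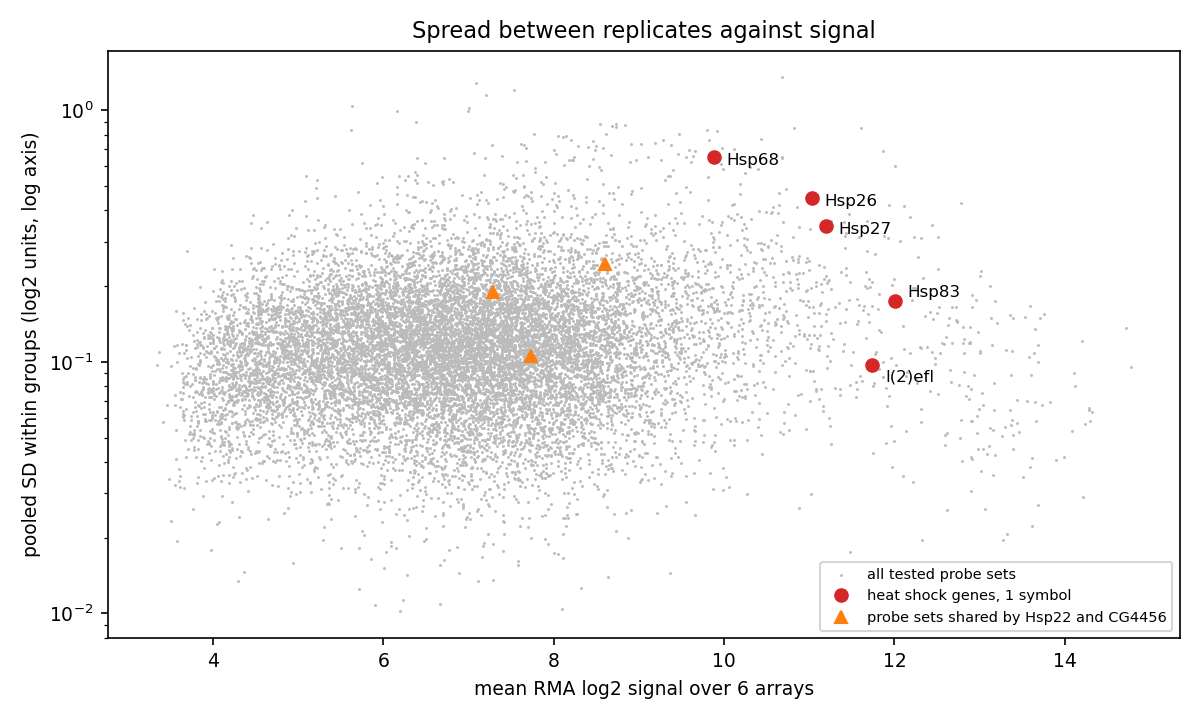
Pooled SD within groups (vertical log axis, log2 units) against the mean RMA log2 signal over 6 arrays for all 13966 tested probe sets, with the 5 heat shock genes as circles and the 3 probe sets shared by Hsp22 and CG4456 as triangles. Hsp68, Hsp26 and Hsp27 lie above most probe sets at 0.65, 0.45 and 0.35, and l(2)efl lies within the bulk at 0.10.

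The replicate number was then tested itself, as a term over both groups, a test chosen after the values were seen. Hsp68 differed between the numbers (F = 134, adjusted p = 0.020 by limma over all probe sets), and its p was the fifth smallest of all probe sets. It was the 1 called gene of the 5, where 0.365% of all probe sets were called. Averaged over both groups, replicate 2 lay 1.10 below the mean of replicates 1 and 3, a 2.15-fold lower signal, by 1.14 in wild type and 1.07 in mle/mle. Each fit with 1 array left out keeps 1 lone array of that replicate number, so it cannot decide how stable the call is. The call was lost in both fits that drop a replicate 3 array and kept in the other 4. In the fits that drop a replicate 2 array, a large share of all probe sets was called, so a call there says little about Hsp68.

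The other genes did not pass this test. Hsp83 had an unadjusted p = 0.013 (adjusted p = 0.21 by limma), Hsp26 0.050 (adjusted p = 0.31), l(2)efl 0.18 and Hsp27 0.38. The brightest and the dimmest shared probe sets of Hsp22 and CG4456 had an unadjusted p of 0.014 and 0.0080 (adjusted p = 0.21 and 0.18 by limma). Replicate 2 was the lowest array in both groups for 4 of the 5 genes, Hsp26, l(2)efl, Hsp68 and Hsp83, against 15.7% of all probe sets. In Hsp83 and l(2)efl this rested on small steps, 0.19 and 0.15 on average.

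The PLIER values are a second summary of the series' arrays and not further samples. Their columns carry the group and 1 of 2 array codes but no replicate number, and they also show low Hsp68 arrays. The wild type arrays read 9.74 and 8.62 under the first code and 10.05 under the second, and the mle/mle arrays read 9.86 and 8.79 under the first and 10.07 under the second. Each group thus had 1 low array, and both low arrays share their code with 2 high ones. In each group the array of the second code read highest, as replicate 3 did in the RMA values of Hsp68. The columns do not state whether the second code is replicate 3. Hsp26 read 11.37, 10.16 and 11.44 in wild type, and in mle/mle 11.17, 10.93 and 11.13 in the same order, with 1 low array in wild type. The group differences of the PLIER table were 0.09 for Hsp26, 0.14 for Hsp27, -0.25 for l(2)efl and 0.10 for Hsp68, and none passed (adjusted p = 1.0 for each by limma).

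The wider chaperone system was read from lists of its genes. Over all probe sets the median log2 difference was 0.0066 and 46.3% were negative. No gene of the 6 chaperone and heat shock lists was called between mle/mle and wild type, in the comparison of all 6 arrays or without replicate 2 of both groups. Of the Hsp70 and Hsp110 family, 7 of 13 listed genes were measured, 5 positive and 2 negative with a median of 0.03. The largest differences were 0.17 in Hsc70-5, the mitochondrial Hsp70, and 0.12 in Hsc70-4, the main constitutive cytosolic one. The Hsp70 genes proper have no probe set of their own and were not analysed here. Of the J proteins and other Hsp70 cochaperones, 9 of 12 were measured, 6 positive and 3 negative with a median of 0.02. Tpr2 differed by 0.16 and DnaJ-1, the stress-inducible J protein that works with Hsp70, by 0.14.

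Of the Hsp90 family and its cochaperones, all 11 listed genes were measured, 6 positive and 5 negative with a median of 0.0018. The largest difference was 0.14 in Fkbp59, and Stip1, which links Hsp70 to Hsp90, differed by 0.0018. Gp93, the Hsp90 of the endoplasmic reticulum, and Trap1, that of mitochondria, differed by 0.04 and -0.05. Of the chaperonins, all 14 were measured, 3 positive and 11 negative with a median of -0.07. CG11267, which encodes a Hsp10-like protein, had a difference of 0.28 and the smallest p of the list (unadjusted p = 0.013, adjusted p = 0.76 by limma), and Hsp60C had the largest, -0.50 (SE 0.37), which was -0.26 without replicate 2 of both groups. The other small heat shock genes measured, CG4461, CG7409 and CG13133, differed by 0.11, 0.01 and 0.04. Of the heat shock regulators, Hsf itself read 6.47 ± 0.06 in the wild type arrays and 6.40 ± 0.08 in those of mle/mle (SD, n = 3 each), a difference of -0.06. Hsf and Trl, which encodes the GAGA factor found at heat shock promoters, were below the dim level, where RMA compresses changes.

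Replicate 2 was the lowest array of both groups in 5 of 9 J proteins and Hsp70 cochaperones, 3 of 7 genes of the Hsp70 and Hsp110 family, 4 of 14 chaperonins and 2 of 11 genes of the Hsp90 family, against the 15.7% of all probe sets. It was so in 1 of 4 heat shock regulators and in 0 of 3 other small heat shock genes. By the test of the replicate number, 1 gene of the chaperone lists was called, CG9920, a further Hsp10-like gene (adjusted p = 0.023 by limma). It read 10.02, 9.01 and 10.06 in wild type, and in mle/mle 9.90, 8.59 and 9.97. DnaJ-1 read 10.08, 9.51 and 10.43 in wild type, and in mle/mle 10.19, 9.88 and 10.38, and Hsp60C read 8.31, 7.50 and 7.96 in wild type, and in mle/mle 7.94, 6.51 and 7.82. In all 3 genes replicate 2 was the lowest array of each group, but DnaJ-1 and Hsp60C did not pass (adjusted p = 0.10 for each by limma). Replicate 2 of Hsp60B lay -0.78 from the mean of replicates 1 and 3, against -0.57 in DnaJ-1 and -0.07 in Hsp60A. Hsp60B did not pass either (adjusted p = 0.15 by limma). The median of replicate 2 minus the mean of replicates 1 and 3 was -0.21 over the J proteins and Hsp70 cochaperones, -0.17 over the Hsp90 family, -0.11 over the Hsp70 and Hsp110 family and -0.09 over the chaperonins, against 0.02 over all probe sets. The same median was -0.01 over the heat shock regulators and 0.08 over the other small heat shock genes.

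Some testis markers lay as far below the other replicates at replicate 2 as Hsp68 did. Of 14 measured testis genes, 6 had replicate 2 as the lowest array of both groups, and 7 were above the dim level. Replicate 2 lay -1.29 from the mean of replicates 1 and 3 in dj, -1.21 in betaTub85D, -1.10 in Mst84Da, -1.10 in Mst87F and -0.64 in Mst84Db, against -1.10 in Hsp68. Mst84Da was called by the test of the replicate number (adjusted p = 0.037 by limma), and the other 4 were not (adjusted p = 0.052 to 0.080 by limma). The remaining testis genes above the dim level, sa and tomb, were flat at -0.01 and -0.0052, and aly, below that level, lay at 0.26. Over the whole list the median was -0.16. The part of testis RNA in the replicate 2 values of Hsp68 and the chaperone genes was not tested.

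**Figure D4:**
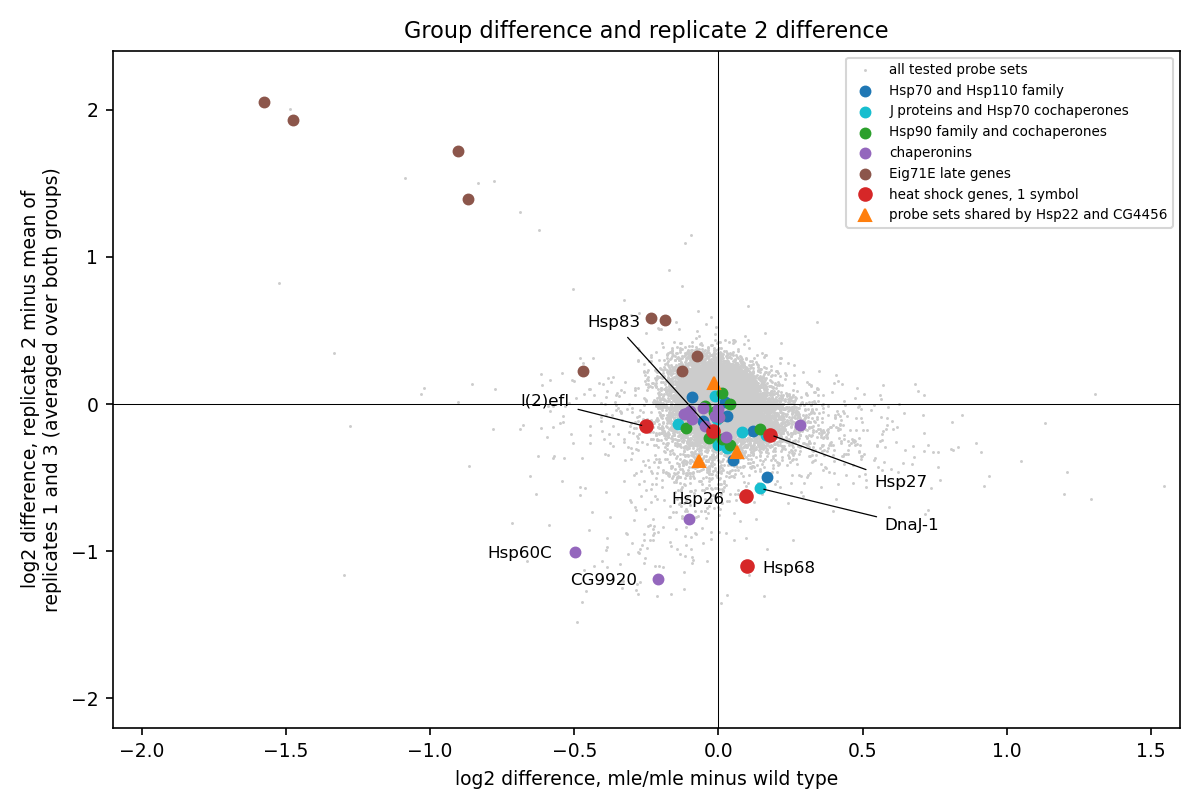
Log2 difference of replicate 2 from the mean of replicates 1 and 3, averaged over both groups (vertical axis), against the log2 difference between mle/mle and wild type (horizontal axis), for all tested probe sets, the heat shock genes, 4 chaperone lists and the Eig71E late genes. Hsp68 lies at -1.10 on the vertical and 0.10 on the horizontal axis, near CG9920 at -1.19 and -0.21, while the Eig71E genes lie above and left of 0.

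Genes of the ecdysone response were read beside the 67B genes. Of the listed ecdysone receptor, early and hormone-induced genes, 21 of 24 were measured, with a median difference of 0.06, 17 positive and 4 negative. None was called (smallest adjusted p = 0.87 by limma). EcR, the receptor, differed by 0.11, and br and Eip78C, early genes it controls, by -0.17 and 0.32. With both replicate 2 arrays left out, the list's median was -0.01, and br at -0.44, ImpE2 at -0.40 and ImpL2 at -0.39 were called lower (adjusted p = 0.025, 0.025 and 0.041 by limma). That fit, which keeps only replicates 1 and 3 of each group, called 3.24% of all probe sets. The Eip78C difference turned to -0.16 there; its replicate 2 read 6.42 in wild type and 7.70 in mle/mle. The Eig71E genes, induced late in the response, were negative in all 9 measured members with a median of -0.47, and none was called (smallest adjusted p = 0.60 by limma). Without replicate 2 of both groups their median was -0.63, and Eig71Ea, Eig71Ed, Eig71Ee, Eig71Ef and Eig71Eg, 5 of the 9, were called lower (adjusted p = 4.5e-05 to 0.026 by limma). Only 4 of the 9 were above the dim level, and Eig71Ef was below it. So were Eig71Eh, Eig71Ei, Eig71Ej and Eig71Ek, which differed by -0.04, -0.04, -0.03 and 0.02 without replicate 2 of both groups. Eig71Ed was also called with the replicate number as a block (adjusted p = 0.021 by limma) and by the test of the replicate number (adjusted p = 0.0053 by limma). Their list median per array, each gene centred on its own mean, was 0.02, 0.70 and -0.13 in wild type, and in mle/mle -0.35, 0.15 and -0.43, so that replicate 2 was the highest array of each group. The array with the highest Eig71E level, wild type replicate 2, was the one with the lowest Hsp26 and Hsp27. On mle/mle replicate 2, with the next highest Eig71E level, the genes split: Hsp26 was second lowest at 10.97 and Hsp27 second highest at 11.48. ImpL1, an ecdysone-inducible gene below the dim level, read 7.67 on wild type replicate 2 and between 5.03 and 5.33 on the other 5 arrays.

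The tissues of the larva were read from marker lists on the same centred scale. The 9 measured salivary gland glue genes were all above the dim level and all negative in mle/mle, with list medians of 0.17 to 0.25 in wild type and -0.26 to -0.01 in mle/mle, none called over all probe sets with the 6 arrays. Without replicate 2 of both groups, where 3.24% of all probe sets were called, their median difference was -0.48. Sgs4, Sgs5, Sgs5bis, Sgs8 and Pig1 were called lower there (adjusted p = 9.95e-05 to 0.019 by limma), while ng3 turned to 0.23 and was not called. Sgs5bis was also called without wild type replicate 2 alone, and Sgs5bis and Sgs8 without mle/mle replicate 2 alone. The 4 measured muscle genes had list medians of -0.08 to 0.05 in wild type and -0.38 to 0.33 in mle/mle, lowest at mle/mle replicate 2, and their median difference went from 0.08 to 0.25 without replicate 2 of both groups, none called. The 14 testis genes had medians of -0.21 to 0.11 in wild type and -0.09 to 0.08 in mle/mle, lowest at replicate 2 in each group. The 6 hemocyte genes were all positive, with medians of -0.16 to -0.07 in wild type and -0.11 to 0.26 in mle/mle. Their median difference of 0.23, none called, became 0.37 without replicate 2 of both groups, where Hml, Pxn and PPO2 were called higher (adjusted p = 0.00045, 0.027 and 0.040 by limma). The 4 fat body genes ran from -0.17 to 0.10, the 4 nerve genes from -0.06 to 0.16 and the 5 germ cell genes from -0.02 to 0.06 over all arrays. The part of these tissues and of the ecdysone response in the values of the heat shock genes was not tested.

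Among 6912 other genes above the dim level, those closest to the mean centred profile of Hsp26 and Hsp27 over the 6 arrays were CG33229, Nmdmc, Eip63E, kel and Pino, at a mean absolute difference of 0.075 to 0.095, where the median gene was at 0.24. Those closest to Hsp83 were shn, Scox, CG31729, PpD3 and CG18659, at 0.015 to 0.025, where the median gene was at 0.15. With so many candidates and 6 arrays, close profiles are common, and this likeness is a description only.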

How the data were processed

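The deposited series table holds log2 signals of 14010 probe sets, made by the authors with RMA per the submitters' processing notes; version, background step and settings are not given in the sources used here. Array medians of 6.89 to 6.92 are as close as normalization between arrays leaves them. A second table deposited by the authors holds log2 signals made with PLIER and, per the file headers, an offset of 16. No scanner files or detection calls were used, and the number of arrays limits the precision.

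After leaving out 44 array controls, 13966 probe sets were tested. In the platform annotation 12442 of them have 1 gene symbol, 327 have several and 1197 have none. RefSeq gave current symbols (assembly Release 6 plus ISO1 MT) and also named 20 unlisted probe sets, Hsp83 among them, by a synonym. The brightest probe set stood for a gene. The arrays name no build, so no coordinates are printed.

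The 2 genotypes were compared by limma 3.58.1 (lmFit, then eBayes; R 4.3.3). Tests were two-sided, and p-values were adjusted by Benjamini-Hochberg across the 13966 probe sets. The pairing rests on the numbers in the titles and the correlations given above. The fit was tested on simulated data with known answers. It recovered 41 of 100 changes of 0.5 log2 units and 92 of 100 changes of 1.0, with 7 false calls among 13766 unchanged probe sets. The simulated noise was independent between arrays and held no replicate effect. The changes were put into probe sets drawn at random, most of which vary less than Hsp68, Hsp26 and Hsp27. The recovery therefore does not describe these genes, in which changes of such size can go uncalled. In other probe sets too, smaller changes can go uncalled. The members, lists and alternatives were chosen with earlier results of these data known, and the F test of the replicate number after the values were seen. The text names all members and, of each list, the genes called with all arrays, without replicate 2 of both groups or by the F test, and up to 4 of the largest differences; br, Hsf, Trl, EcR, Stip1, Gp93, Trap1, the neighbours Fdx1 and CG4080, CG9920 and Mst84Db were added for their role, place or replicate values. Hsp60B, sa, tomb, aly and Eig71Eh to Eig71Ek were also named, for their replicate values or low signal. Python 3.11.15 with matplotlib 3.10.9 drew the figures.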

Additional observations from a re-analysis of the deposited data

How the results depend on the processing

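The count of called heat shock genes between mle/mle and wild type was 0 in all 15 alternatives, where the smallest adjusted p of a heat shock probe set was 0.10 by limma (l(2)efl without replicate 2 of both groups) and the smallest unadjusted p was 0.0042. Over all probe sets, the 8 calls became 4 with the PLIER table, 1 when that table was fitted with a block for array code, 0 inside the code of 4 arrays, and 0 to 453 with arrays left out. The distance of the 67B median from that of the others, 0.16, was -0.13 to 0.30 with arrays left out by replicate number, the lowest without replicate 2 of both groups. In the 8 other settings this distance was 0.097 to 0.23. The 0.23 came from the PLIER fit inside the code of 4 arrays, and the next highest was 0.17 with quantile normalization. Directions turned in 23 of 120 values, none past the test. In the PLIER table these were Hsp83 (0.019, also when blocked by array code, and 0.056 inside the code of 4 arrays) and the dimmest shared probe set (-0.0018, also when so blocked, and -0.053 inside that code). With arrays left out, the ranges were -0.27 to 0.29 for Hsp26, -0.16 to 0.37 for Hsp27, -0.28 to 0.46 for Hsp68, -0.11 to 0.091 for Hsp83, and -0.085 to 0.031, -0.25 to 0.053 and -0.059 to 0.16 for the 3 shared probe sets. The l(2)efl difference turned in none. With the replicate block the differences of the 6-array fit, such as -0.25 for l(2)efl (adjusted p = 0.40 by limma), were the same by construction, and the block changed no call of these genes. Nor could the dim filter, the other variance model or means over probe sets move these differences. Such values among the 120 could not turn. In the test of the replicate number, Hsp68 stayed called with quantile normalization (adjusted p = 0.024), the dim filter (0.040), the other variance model (0.021) and means over probe sets (0.024) by limma. Called probe sets there went from 51 to 20 with the dim filter, 84 with the other variance model, and 1 to 5081 with arrays left out, with 0 to 4 of the 5 genes among them. In such fits a lone array of a number is assumed to vary like the rest. For the lists, the block and the other variance model could not move a median. Of 450 list values under alternatives, 425 stayed within the spread between arrays or 1.5 times the count, and 25 moved. The cause of these moves was not tested.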
